A study of Mus musculus with 8 samples.

Results

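Small leucine-rich proteoglycans are secreted matrix proteins whose curved, leucine-rich core binds collagen fibrils and sets how thick and how regularly spaced they grow. Several also carry chondroitin, dermatan or keratan sulfate chains, and several bind growth factors and their receptors, among them TGF-beta. In the heart they are made mainly by fibroblasts and are part of the collagen network between the muscle cells. The 9 genes described here were Lum, Dcn, Bgn, Fmod, Ogn, Omd, Prelp, Aspn and Podn, chosen by name from a table of 49315 genes, and all 9 were among the 16180 genes with enough counts to be tested.

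Counts came from 8 RNA-seq libraries of hearts of C57BL/6 mice, an inbred laboratory strain, at 8 weeks of age: 4 libraries from females and 4 from males, with no genotype change or treatment in either group. The question was how the expression of these genes differed between the sexes. The labels name the tissue only as heart and do not state which chambers were taken or that each library was a separate animal, so that p-values measure the spread between these libraries, which may be technical. Levels are in CPM, a count relative to the scaled library size, and each log2 fold change is males over females with its standard error (SE). The heart muscle gene Myh6 stood at 40972 ± 1845 CPM in females and 39317 ± 2795 in males (SD, n = 4).

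Male replicate 4 stood apart from the other 7 libraries in transcripts of the atria. The 6 atrial genes Nppa, Bmp10, Myl7, Myl4, Sln and Mybphl, chosen after the data were seen, summed to 463 CPM in it and to 2339 to 2818 CPM elsewhere. The ventricular genes Myl2, Myl3 and Irx4 summed to 14116 CPM there, within the 12700 to 14261 CPM of the other libraries. Results for the proteoglycans are therefore given with and without this library. Male replicate 1 was high in the macrophage gene Adgre1 (62.8 CPM against 10.9 to 13.9 elsewhere). Total counts were 32746054 to 35467832 in females and 39612848 to 47097765 in males, so depth and sex cannot be told apart.

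Of the 9 genes, 7 lie in clusters of neighbours. Coordinates are GRCm38, from the deposited tables. Dcn (chromosome 10, 97479500 to 97518162) and Lum (chromosome 10, 97565501 to 97572703) are 47.3 kb apart on the plus strand, followed by their relatives Kera and Epyc. Aspn (chromosome 13, 49544443 to 49567565), Omd (49582766 to 49592609) and Ogn (49608071 to 49624500) follow each other at gaps of 15.2 and 15.5 kb. These 3 genes lie on the plus strand within the span of Cenpp, which is on the minus strand, and share 0 exon bases with it. Prelp (chromosome 1, 133910304 to 133921414) and Fmod (chromosome 1, 134037254 to 134048277) are 116 kb apart on opposite strands. Bgn is on the X chromosome (73483602 to 73495933) and Podn on chromosome 4 (108014791 to 108096445). Prelp shared 350 exon bases, 9.68% of its exons, with the antisense gene Gm15851, and whether the counting used strand is not given in the sources used here, so its counts are uncertain to that extent.

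The 250 bases before the start of 4 of these genes are shown because they set the X-linked member beside the 3 neighbours on chromosome 13. RefSeq (GRCm38.p6) promoter windows matched 7 of the 9 genes, all but Lum and Dcn. Capitals mark matches on either strand to the TATA box letters TATAAA, to the CCAAT box, to the GC box letters GGGCGG and to AGAACA, the half-site of the androgen response element.
Bgn: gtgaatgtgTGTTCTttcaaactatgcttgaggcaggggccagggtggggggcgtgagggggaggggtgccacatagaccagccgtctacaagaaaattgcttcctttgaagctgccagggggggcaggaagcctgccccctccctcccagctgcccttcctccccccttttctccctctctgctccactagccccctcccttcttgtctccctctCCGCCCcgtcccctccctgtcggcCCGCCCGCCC
Aspn: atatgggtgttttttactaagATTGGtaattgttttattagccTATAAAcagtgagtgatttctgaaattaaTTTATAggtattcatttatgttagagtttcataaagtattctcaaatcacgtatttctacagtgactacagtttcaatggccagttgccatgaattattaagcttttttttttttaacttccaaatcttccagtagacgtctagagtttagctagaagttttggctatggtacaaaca
Omd: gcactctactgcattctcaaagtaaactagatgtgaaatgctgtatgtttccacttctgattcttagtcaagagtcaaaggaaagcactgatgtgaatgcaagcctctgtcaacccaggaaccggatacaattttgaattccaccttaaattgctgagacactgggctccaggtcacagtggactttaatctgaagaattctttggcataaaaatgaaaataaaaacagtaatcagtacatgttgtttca
Ogn: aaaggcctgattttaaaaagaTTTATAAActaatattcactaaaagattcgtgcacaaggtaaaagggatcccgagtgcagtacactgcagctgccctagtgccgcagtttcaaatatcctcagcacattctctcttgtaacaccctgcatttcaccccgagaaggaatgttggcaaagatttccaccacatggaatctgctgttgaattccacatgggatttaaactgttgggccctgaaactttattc

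These stretches are chrX:73483351-73483600, chr13:49544193-49544442, chr13:49582212-49582461 and chr13:49607765-49608014, all on the plus strand. The Bgn promoter window, which also takes in the 50 bases after the start, was 63.7% G and C, whereas those of Aspn, Omd and Ogn were 31.0%, 37.7% and 42.3%, on either side of the median of 52.7% over all mouse promoters in the table. Bgn held 3 GC boxes within its last 34 bases, the last pair sharing bases, and 1 AGAACA match. Aspn held 2 TATAAA matches and 1 CCAAT match, and Ogn held 2 overlapping TATAAA matches, all far from the start at the upstream end of the window. Of the 7 genes, 2 held a TATA box, 3 a CCAAT box, 2 a GC box and 1 the androgen half-site. Of 32851 single promoter windows, 13.6%, 37.4%, 35.7% and 19.0% did. Podn had 2 windows, and a gene counted if any of its windows matched. The full oestrogen response element was in 0 of the 7 genes and in 0.0700% of all windows. A match is a description of the letters only.

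Per exon length, the scale used here to compare genes, Dcn was the highest of the 9 genes and Omd the lowest. The length counts every annotated exon base of a gene, and the transcripts in use were not determined. Dcn, which coats collagen fibrils and binds TGF-beta, stood at 190 CPM per kilobase of exon on average (169 to 200 over 8 libraries). Bgn, its closest relative, stood at 41.8 (37.1 to 48.5), 4.56 times below Dcn and outside its range. That gap depends on the lengths, 6.10 kb for Bgn and 2.08 kb for Dcn. In CPM the means of Bgn were 274 in females and 236 in males, and those of Dcn 402 and 392. Ogn and Lum followed at 28.4 (24.5 to 30.9) and 27.8 (18.9 to 36.1), with overlapping ranges. Prelp stood at 17.6 (16.1 to 18.7), clear of its neighbours on either side. Podn at 11.2 (5.27 to 13.4) touched the range of Aspn through male replicate 4 alone. Aspn at 5.03 and Fmod at 4.73 had overlapping ranges, and Omd was lowest at 0.490 (0.326 to 0.603).

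**Figure D1:**
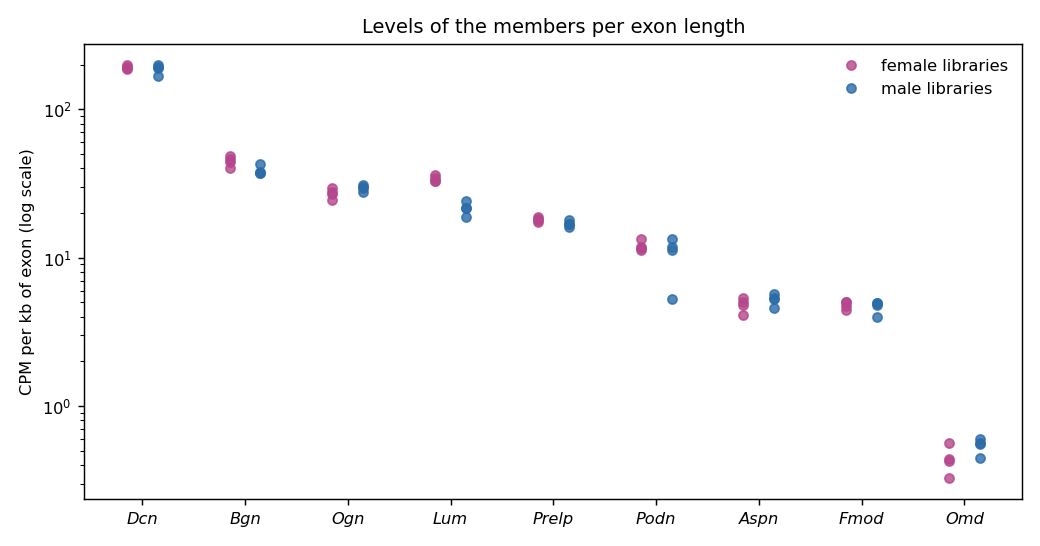
Level of each gene in CPM per kilobase of exon (vertical axis, log scale), 1 point per library, females and males side by side. Dcn is highest and Omd lowest, and Lum and Ogn change places between the sexes.

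The place of Lum in that order depended on sex. It stood at 34.1 ± 1.53 CPM per kilobase in females and 21.5 ± 2.10 in males, whereas Ogn stood at 27.2 ± 2.07 and 29.6 ± 1.29 (SD, n = 4 each). Lum thus stood above Ogn in females and below it in males. As a share of the summed per-length level of the 9 genes, Lum held 10.05% ± 0.441 in females and 6.82% ± 0.401 in males. The share of Dcn was 56.9% ± 1.36 and 59.6% ± 0.800, that of Bgn 13.2% ± 1.08 and 12.3% ± 1.01, and that of Ogn 8.01% ± 0.559 and 9.39% ± 0.310. Shares sum to a whole, so that a lower one raises the others, and they depend on the same exon lengths.

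Of the 9 genes, 1 was called different between the sexes, and it was Lum. In the same test 3.79% of the 16180 genes were called, 1.76% higher in females and 2.03% higher in males (quasi-likelihood test of edgeR at an adjusted p of 0.05). The median log2 fold change of the 9 was -0.04, with 6 negative (3 relative to the fibroblast markers described below). That of all genes tested was -0.00074 (0.21 relative to those markers). Female and male CPM did not overlap for 1 of the 9, again Lum, where 12.0% of all genes tested did not overlap. Without male replicate 4 the test again called 1 of the 9, Lum, with a median log2 fold change of 0.01. In that fit 434 of 16257 genes tested were called. CPM then did not overlap for Lum and Ogn, and the share of all genes without overlap was not computed for these libraries.

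**Figure D2:**
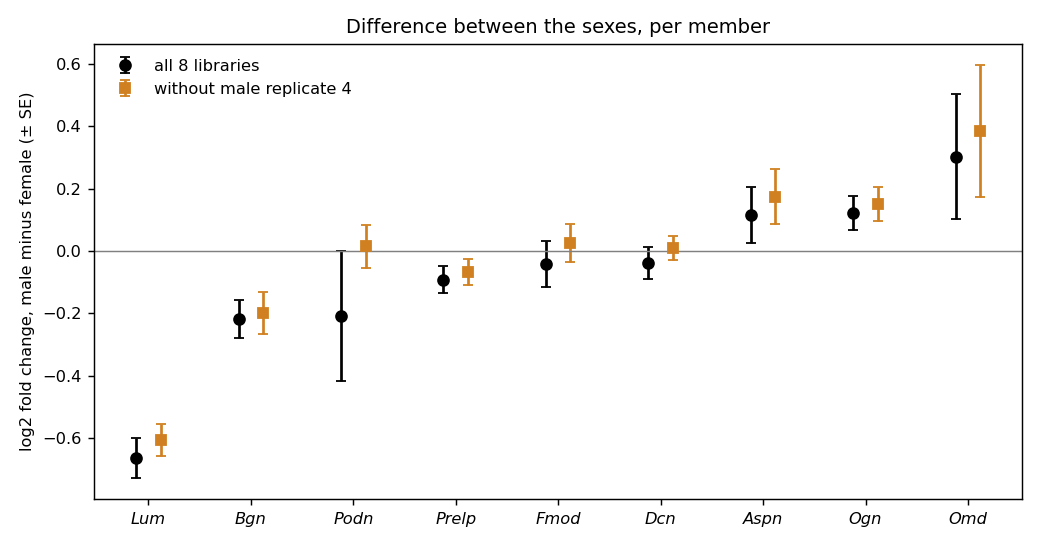
Log2 fold change, male minus female, with its SE (vertical axis) for each of the 9 genes, from all 8 libraries and without male replicate 4. Lum is the most negative in both fits, and Podn moves from -0.21 with an SE of 0.21 to 0.01 with an SE of 0.07.

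Lum encodes lumican, a keratan sulfate proteoglycan best known from the cornea, where it keeps collagen fibrils thin and evenly spaced. It was at 74.8, 68.1, 68.3 and 71.8 CPM in the female libraries and at 45.0, 49.8, 44.8 and 39.1 in the male ones. Every female library lay above every male one. The means were 70.8 ± 3.18 and 44.7 ± 4.35 CPM (SD, n = 4), 1.58-fold higher in females (log2 fold change -0.66, SE 0.06, edgeR adjusted p = 0.00028). The lowest male library was male replicate 4. Without it the difference was -0.60 (SE 0.05, adjusted p = 0.00018), and with each library left out in turn it ran from -0.72 to -0.60 with an adjusted p of at most 0.0019. Counts of Lum were 1794 to 2484 per library. In bulk tissue, fewer cells of a type and less RNA per cell cannot be told apart.

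**Figure D3:**
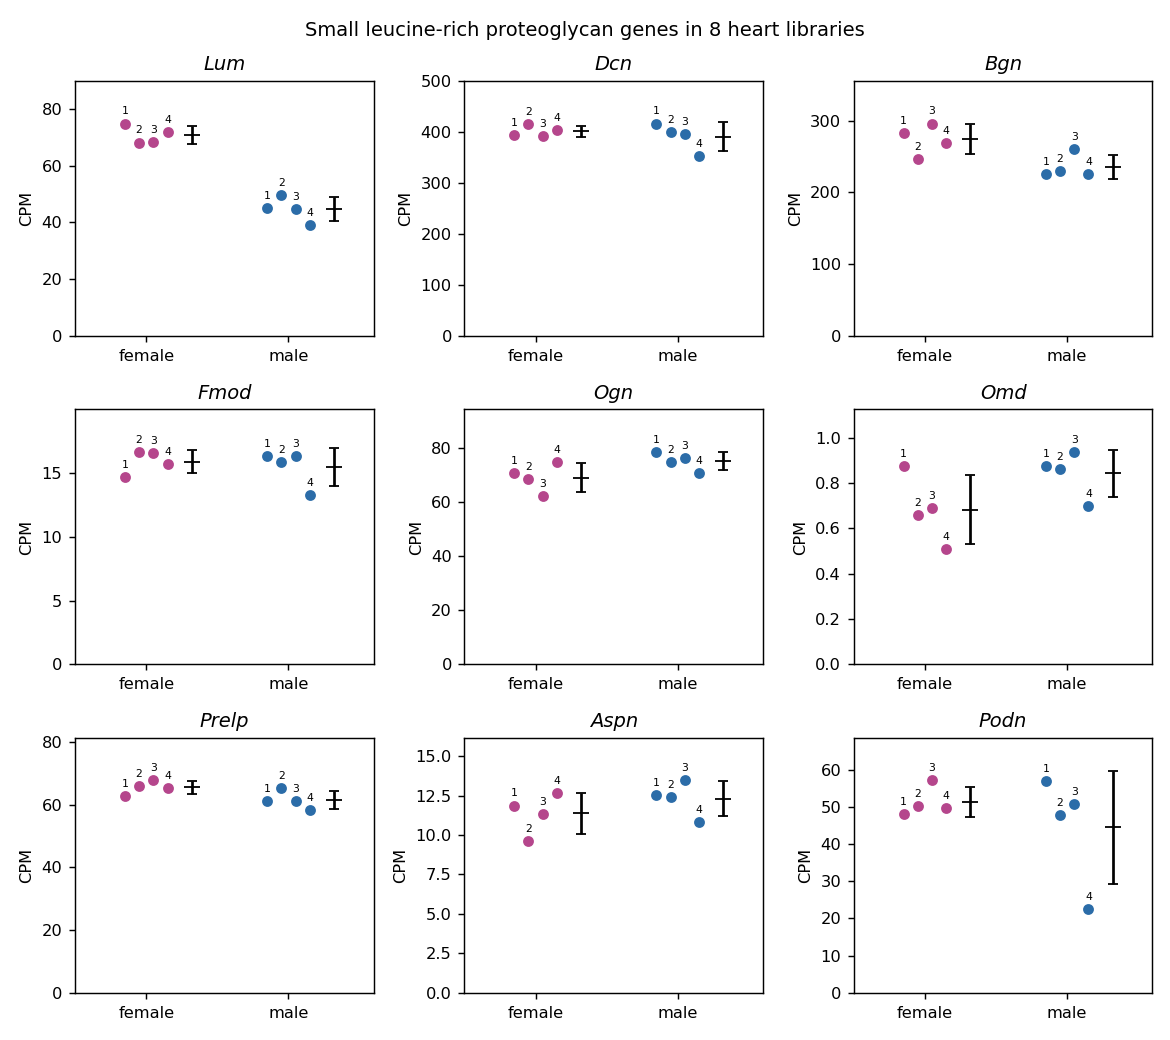
CPM (vertical axes from 0, a scale per gene) of each gene in 4 female and 4 male libraries, points numbered by replicate, with mean and SD as bars. Lum separates the sexes without overlap, and male replicate 4 lies far below the other males in Podn.

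The members Fmod, Prelp and Omd did not follow Lum. Fmod encodes fibromodulin, which binds collagen near the lumican site and guides cross-linking, and was at 14.6, 16.6, 16.5 and 15.7 CPM in females and 16.3, 15.8, 16.3 and 13.3 in males. The sexes overlapped, and only male replicate 4 lay below the female range (log2 fold change -0.04, SE 0.07, adjusted p = 0.82; 0.03 and adjusted p = 0.87 without it). Prelp encodes a protein that ties collagen to basement membranes, and was at 62.8, 66.0, 67.7 and 65.4 CPM in females and 61.2, 65.3, 61.1 and 58.2 in males. Male replicate 2 lay inside the female range and the other 3 males just below it (-0.09, SE 0.04, adjusted p = 0.26; -0.07 and adjusted p = 0.42 without male replicate 4). Omd, which encodes the bone proteoglycan osteoadherin, had 17 to 40 counts per library and 237 in all. Its values of 0.876, 0.658, 0.689 and 0.507 CPM in females and 0.874, 0.862, 0.938 and 0.698 in males overlapped (0.30, SE 0.20, adjusted p = 0.44; 0.39 and adjusted p = 0.35 without male replicate 4). With counts this few, a difference in Omd of that size is neither shown nor excluded. The 6 cartilage and bone markers had too few counts to be tested, 2 to 23 counts each over the 8 libraries.

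The dermatan and chondroitin sulfate members Dcn and Bgn were the most abundant. Dcn was at 395, 417, 392 and 404 CPM in females and 417, 401, 396 and 352 in males. The female and male values interleaved except for male replicate 4, the lowest of all (402 ± 11.1 against 392 ± 27.6 CPM; -0.04, SE 0.05, adjusted p = 0.73). Without that library the difference was 0.01 (SE 0.04, adjusted p = 0.94). Dcn lies next to Lum, and the 2 neighbours are given as a ratio below.

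Bgn encodes biglycan, which also signals through Toll-like receptors once released from the matrix. It was at 283, 247, 296 and 269 CPM in females and 226, 229, 261 and 226 in males. Male replicates 1, 2 and 4 lay below all females, and male replicate 3 lay inside the female range (274 ± 20.9 against 236 ± 16.9 CPM). The difference of -0.22 (SE 0.06) did not pass the threshold in edgeR (adjusted p = 0.080; -0.20 and 0.15 without male replicate 4). It passed in the DESeq2 Wald test (adjusted p = 0.013), with no filter on low counts (0.025), without male replicate 3 (0.041) and without female replicate 2 (0.040), and over all alternatives its adjusted p ran from 0.013 to 0.94. Aspn, or asporin, another relative in this branch, lacks such a chain and binds TGF-beta. It was at 11.9, 9.63, 11.3 and 12.7 CPM in females and 12.5, 12.4, 13.5 and 10.8 in males, with overlap (0.12, SE 0.09, adjusted p = 0.53; 0.17 and 0.32 without male replicate 4).

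Ogn encodes osteoglycin, a member of another branch whose expression has been linked to left ventricular mass. It was at 70.7, 68.6, 62.1 and 74.7 CPM in females and 78.5, 74.9, 76.4 and 70.8 in males. Male replicates 1 to 3 lay above all females and male replicate 4 lay among them (69.0 ± 5.26 against 75.1 ± 3.28 CPM). The difference did not pass the threshold with this library (0.12, SE 0.05, adjusted p = 0.25) or without it (0.15, SE 0.06, adjusted p = 0.19), although the 7 remaining values did not overlap. Ogn and Lum thus had close female means in CPM, 69.0 and 70.8, and male means of 75.1 and 44.7.

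Podn encodes podocan, a member of a more distant branch that binds collagen and restrains smooth muscle growth. It was at 48.0, 50.3, 57.1 and 49.7 CPM in females and 56.8, 47.9, 50.6 and 22.5 in males. Male replicate 4 stood at 43.5% of the mean of the other 3 males, of which replicates 1 and 3 lay inside the female range and replicate 2 just below it. The fitted difference of -0.21 (SE 0.21, adjusted p = 0.64) became 0.01 (SE 0.07, adjusted p = 0.94) without that library. Its biological coefficient of variation was 0.206, whereas the other 8 genes had 0.047 to 0.119.

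Male replicate 4 was also the lowest library for Lum, Dcn, Fmod and Prelp, though by less. Relative to the mean of the other males it stood at 84.1% for Lum, 87.1% for Dcn, 94.7% for Bgn, 82.1% for Fmod, 92.4% for Ogn, 78.4% for Omd, 93.1% for Prelp and 84.4% for Aspn. Its summed CPM over the 9 genes was 794, where the other males had 897 to 920 and females 944 to 972. Its 12 fibroblast markers summed to 2293 CPM, below the 2546 to 2626 of the other males. Of that sum Gsn alone made up 1754 CPM, with 1947 to 2040 in the other males. The geometric mean of the 12 was 46.4 CPM, with 50.3 to 51.8 in the other males. How far the low atrial transcripts of this library bear on these values was not tested.

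**Figure D4:**
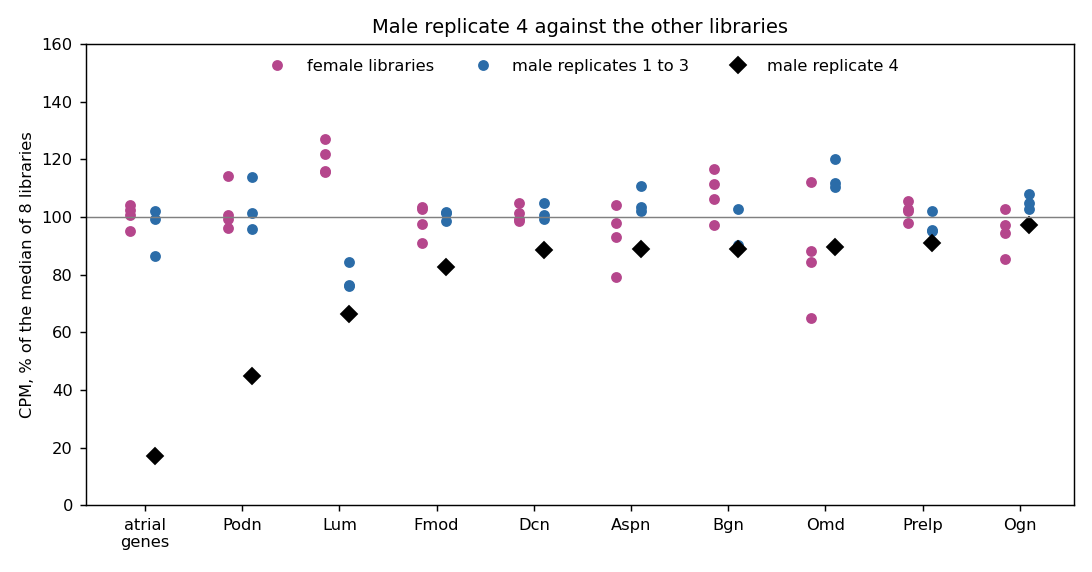
CPM of the summed atrial genes and of each proteoglycan gene in every library, as a percentage of the median of the 8 libraries (vertical axis). Male replicate 4 is at 17.1% for the atrial sum and 45.0% for Podn, and between 66.4% and 97.3% for the other 8 genes.

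Because 2 counts from the same library share its depth, Lum was also set against each other member as a count ratio. Lum was taken as the numerator with its difference known. There were 18.9, 16.3, 17.4 and 17.8 Lum counts per 100 Dcn counts in females and 10.8, 12.4, 11.3 and 11.1 in males. All female ratios exceeded all male ones (17.6 ± 1.07 against 11.4 ± 0.707, SD, n = 4), and male replicate 4 lay among the other males. On the log2 scale the ratio to Dcn was 0.63 lower in males, a 1.54-fold difference (exact permutation test, two-sided, p = 0.029, which is the lowest value 4 against 4 libraries can reach; 0.033 adjusted over the 8 pairs).

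The 8 ratios share the Lum counts, so they restate the Lum difference against different partners and are not separate support for it. The sexes did not overlap in 7 of them, which all had that same p. The log2 difference was -0.45 against Bgn, -0.58 against Prelp, -0.62 against Fmod, -0.78 against Aspn, -0.79 against Ogn and -0.99 against Omd, whose counts are few. The ratio to Bgn missed the threshold without female replicate 1, 2 or 4 (exact permutation test, adjusted p = 0.065). The ratio to Podn overlapped (-0.38, exact permutation test, adjusted p = 0.20), since male replicate 4 lay above all females in it. Without that library it was -0.62 and the sexes did not overlap (exact permutation test, adjusted p = 0.029).

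**Figure D5:**
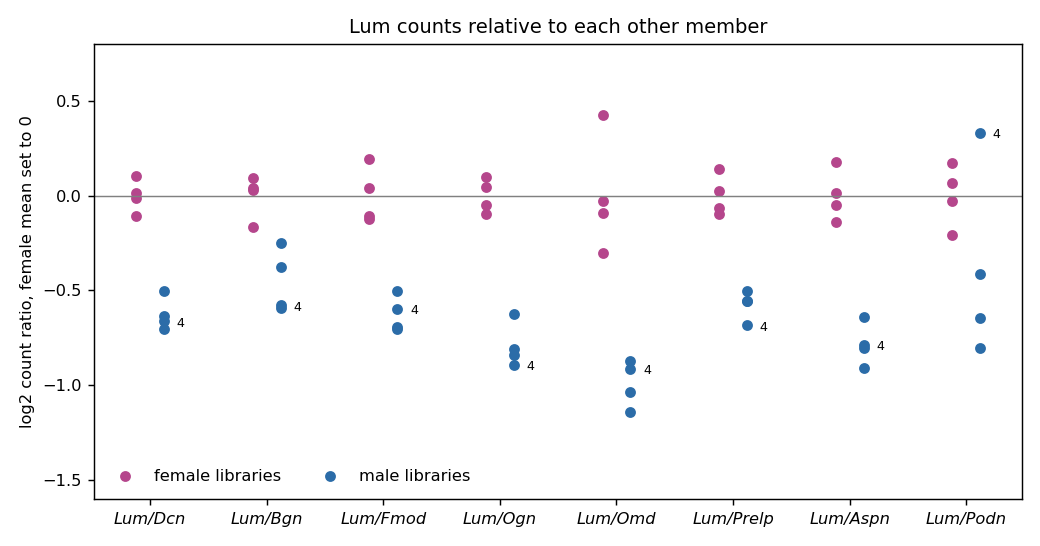
Log2 ratio of Lum counts to those of each other gene in every library (vertical axis, mean of the females set to 0), with male replicate 4 marked. Male libraries lie below female ones for 7 genes, and for Podn male replicate 4 lies above the females.

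Of 12 fibroblast markers, 2 were lower in males and 10 did not pass the test. All 12 had a negative fold change with TMM, DESeq2 and upper quartile scaling (median -0.18, range -0.41 to -0.10). The 2 that passed were the matricellular gene Smoc2 (114 ± 3.84 against 85.3 ± 1.69 CPM, -0.41, adjusted p = 0.00014) and Cd248 (-0.32, adjusted p = 0.018). Pdgfra and Tcf21, which mark cardiac fibroblasts, had -0.13 (adjusted p = 0.11) and -0.30 (adjusted p = 0.061). The 12 summed to 2672 to 2896 CPM in females and 2293 to 2626 in males. Most of that sum was 1 gene, Gsn, at 2072 ± 83.8 CPM in females and 1936 ± 127 in males (SD, n = 4). Relative to the geometric mean of the 12 markers, a scaling added after the data were seen, Lum was at -0.46 (edgeR adjusted p = 0.00051). It was at -0.66 before that scaling, which moves all genes of a library alike. The part of fibroblast content in the Lum difference was not tested. On that scale Dcn (0.17, adjusted p = 0.043), Ogn (0.33, adjusted p = 0.0036) and Aspn (0.32, adjusted p = 0.010) were higher in males, so that 4 of the 9 passed. That scaling also shifted the median of all genes to 0.21 and called 7070 of them, so the value of Dcn lay below that shift and those of Ogn and Aspn above it.

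White adipocyte markers also moved with sex. All 8 were higher in females (median log2 fold change -2.42), and they summed to 90.0 to 189 CPM in females and 16.7 to 51.7 in males. In the order of the replicates the sums were 90.0, 161, 189 and 98.1 CPM in females and 22.6, 26.2, 16.7 and 51.7 in males, beside the Lum values given above. Of the brown adipocyte markers 2 of 6 were higher in females, Ucp1 and Dio2, and of the valve markers 1 of 4 tested, Frzb (-0.47, adjusted p = 0.020). The part of these cells in the Lum difference between the sexes was not tested. Of 9 smooth muscle and pericyte markers (median -0.16, 7 negative), Acta2 (-0.39, adjusted p = 0.032) was lower and Rgs5 (0.18, adjusted p = 0.017) higher in males. Of 7 endothelial markers (median -0.11, 4 negative), Tie1 (0.20, adjusted p = 0.045) was higher in males and the other 6 did not pass. With each library omitted in turn, these calls survived in 2 fits of 8 for Acta2, 1 for Tie1, 7 for Rgs5 (lost without male replicate 3, adjusted p = 0.059) and 6 for Frzb (lost without female replicate 3 or male replicate 3). Among 7 activated fibroblast, 9 epicardial, 7 cardiomyocyte, 9 leukocyte and 5 red cell markers tested, 0 passed the edgeR test. At an unadjusted p below 0.05 the counts were 1, 1, 0, 2 and 0, where 3154 of all 16180 genes tested lay below it. DESeq2 called 2 leukocyte markers and 0 in the other 4 lists, and limma-voom called 0 in all 5.

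The 8 other genes of the proteoglycan family gave 0 calls among 6 tested genes in edgeR, DESeq2 and limma-voom (median log2 fold change -0.16). In edgeR 1 of the 6 had an unadjusted p below 0.05, where 3154 of all 16180 genes tested did. Ecm2, the relative next to Aspn, was the most abundant, with 24.1 ± 1.54 CPM in females against 24.4 ± 1.70 for males (0.01, SE 0.06, adjusted p = 0.94). Epyc, a cartilage proteoglycan downstream of Lum on chromosome 10, was at 0.734 ± 0.267 and 0.377 ± 0.110 CPM on 166 counts in all (-0.97, SE 0.32, adjusted p = 0.12). It shares 12.3% of its exon bases with Gm10754 and is uncertain to that extent. Optc (-0.55), Nyx (-0.20), Chad (-0.13) and Tsku (0.02) had adjusted p of 0.44 to 0.96. Kera, the corneal keratocan gene beside Lum, had 8 counts and Podnl1 30 counts over all libraries, too few to be tested.

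Among the collagens that these proteoglycans bind, 4 of 11 tested genes were called higher in females and 0 in males, and all 11 fold changes were negative (median -0.22, where all genes tested had -0.00074). Col14a1, a fibril-associated collagen that itself binds decorin, was at 37.1, 33.0, 40.0 and 34.6 CPM in females and 20.8, 22.0, 22.2 and 18.8 in males. The sexes did not overlap (36.2 ± 3.07 against 20.9 ± 1.57 CPM; -0.79, SE 0.07, adjusted p = 0.00014; -0.74 and 0.00031 without male replicate 4). The fibrillar gene Col3a1 was at 390 ± 17.9 and 307 ± 18.2 CPM (-0.35, adjusted p = 0.0040) and the beaded-filament gene Col6a3 at 75.1 ± 5.76 and 57.2 ± 6.35 (-0.39, adjusted p = 0.020). Col6a1 (-0.22, adjusted p = 0.042) completed the 4. The main fibrillar genes Col1a1 (-0.16, adjusted p = 0.10) and Col1a2 (-0.11, adjusted p = 0.35) did not pass. With a library omitted the count ran from 2 (without female replicate 1, 3 or 4) to 6 (without male replicate 3), with 3 without male replicate 4, and it was 7 in DESeq2. Relative to the fibroblast markers it was 1, with 6 of the 11 fold changes negative. On that scale the median of all genes tested was 0.21, with 6901 called higher in males and 169 higher in females.

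Genes that process and cross-link collagen gave 1 call among 20 (median -0.01), where 3.79% of all 16180 genes tested were called. Fn1, whose fibronectin network templates collagen, averaged 94.6 ± 16.8 CPM in females against 68.2 ± 3.04 for males (-0.47, adjusted p = 0.024). It missed the threshold without female replicate 3 (0.064), male replicate 3 (0.056) or male replicate 4 (0.056). The cross-linking enzyme genes Lox (0.16, adjusted p = 0.46) and Loxl1 (-0.15, adjusted p = 0.31) did not pass. At an unadjusted p below 0.05 edgeR gave 5 of the 20, and DESeq2 called 2. Enzymes that build the sugar chains gave 0 calls by edgeR in 7 linkage-region genes (median 0.0019), 15 chondroitin and dermatan sulfate genes (median -0.11) and 6 keratan sulfate genes (median -0.05). Of the 15, 12 were negative, or 5 relative to the fibroblast markers, where the median of all genes tested was 0.21. The smallest p in each of the 3 lists belonged to Pxylp1, a xylose phosphatase gene (-0.27, adjusted p = 0.085), Chst14, the dermatan sulfotransferase gene (-0.28, adjusted p = 0.083), and B4galt4, a galactosyltransferase gene (0.28, adjusted p = 0.096). At an unadjusted p below 0.05 edgeR gave 1, 4 and 3 genes of these 3 lists, and 3154 of all 16180 genes tested. DESeq2 called 0, 0 and 1 in the lists, and limma-voom 0 in each.

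Of 22 ligands and receptors that the proteoglycans bind, 1 was higher in males and 0 in females (median 0.01). This was Egfr, a receptor bound by decorin, with 8.69 ± 0.431 CPM in females against 10.8 ± 0.794 for males (0.31, adjusted p = 0.036). The call survived 1 of the 8 omissions of a library, with an adjusted p of 0.081 without male replicate 4 and up to 0.11 without male replicate 3. The TGF-beta genes Tgfb1 (0.07, adjusted p = 0.61), Tgfb2 (-0.37, adjusted p = 0.083) and Tgfb3 (-0.01, adjusted p = 0.97) did not pass, nor did the Toll-like receptor genes Tlr2 (0.11, adjusted p = 0.85) and Tlr4 (0.21, adjusted p = 0.23). Of 10 proteases that cleave members, 1 was higher in females (median -0.18), the membrane-bound metalloproteinase gene Mmp14, which cleaves lumican. Its means were 23.6 ± 1.52 CPM in females against 20.0 ± 0.368 for males (-0.24, adjusted p = 0.029). The call survived 2 of the 8 omissions, with an adjusted p of 0.069 without male replicate 4. Across the table edgeR called 3.79% of the genes tested, beside 1 of these 22 and 1 of these 10. At an unadjusted p below 0.05 it gave 7 of the 22 and 4 of the 10, where 3154 of all 16180 genes tested lay below it. DESeq2 called 3 of the 22 and 2 of the 10, and 964 genes across the table.

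Apart from the sexes, the members varied together mostly through 1 library. After the mean of each sex was removed, Pearson's r between pairs of members over the 8 libraries had a median of 0.42 (36 pairs, from -0.20 to 0.90), and it was at least 0.5 for 14 pairs. Without male replicate 4 the median was -0.12 and 2 pairs reached 0.5. Fmod and Podn went from 0.90 to 0.60, Dcn and Podn from 0.88 to 0.15, and the neighbours Lum and Dcn from 0.62 to -0.31. These values are descriptions over few libraries, which share their depth and tissue make-up across genes.

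The genes whose pattern within the sexes was most like that of Lum, among 12168 genes whose log2 CPM averaged 1 or more, were Pts (r = 0.991), Ikbip (0.981), Brip1os (0.974), Crot (0.972) and Prdx4 (0.967). For Dcn they were Tbx5 (0.975), Arl1 (0.973), Eps8 (0.971), Bend4 (0.970) and Hamp (0.970). For Podn, added after the data were seen, the 5 highest were Sln (0.993; 0.963 without male replicate 4), Dkk3 (0.993), Cilp2 (0.993), Fgf12 (0.991) and 5430419D17Rik (0.990). Without male replicate 4 the r of the listed genes ran from 0.908 to 0.976 for Lum, 0.858 to 0.879 for Dcn and 0.872 to 0.963 for Podn. Sln, which encodes sarcolipin, a calcium pump regulator of atrial muscle, is 1 of the 6 atrial genes above. With this many genes and 8 libraries, values near 1 occur for many genes.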

How the data were processed

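RNA-seq of 8 mouse heart libraries (4 female, 4 male) was analysed from the counts the authors deposited. The submitters' processing notes name GRCm38 (mm10), featureCounts from Subread 1.5.2, STAR 2.5.2b and Trimmomatic 0.36. The annotation version and strand setting are not given in the sources used here. The deposited counts of single libraries equalled the series table in 100% of values. The authors also deposited a normalized signal for 16160 genes, which equals counts divided by a size factor per library (0.863 to 1.20; 100% whole within 0.01 when multiplied back). IDs matched a symbol for 48970 of 49315 genes.

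Counts were filtered with filterByExpr (minimum count 10, total 15), TMM-scaled and tested by quasi-likelihood in edgeR 4.0.16 (R 4.3.3), adjusted by Benjamini-Hochberg over all 16180 genes with a threshold of 0.05. Each SE was derived as the size of the log2 fold change over the root of F. CPM used scaled library sizes, and log2 CPM for likeness a prior count of 2. Total counts were 32746054 to 47097765, so 1 count was worth 0.0218 to 0.0302 CPM. Levels per length are CPM over the deposited exon length. Alternatives were DESeq2 1.42.0, limma 3.58.1 (voom, and log2 of the normalized signal plus 1), other scalings and filters, a replicate block, each library left out, a 1.5-fold minimum, and scaling to fibroblast markers. The procedure was tested on simulated data.

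The genes and lists were chosen with earlier results of these data known. Named are all members and family relatives; in each pathway list up to 3 called genes per direction with the smallest p, or the gene with the smallest p; and in marker lists the first 2 genes and the called gene with the smallest p per direction. Cd248, Gsn, Col1a1, Col1a2, Col6a1, Lox, Loxl1, Tgfb1, Tgfb2, Tgfb3, Tlr2, Tlr4 and Adgre1 were named after their values were seen. The result of 1 marker list is not reported here. Protein sequences were not used here.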

Additional observations from a re-analysis of the deposited data

Results flagged for a closer look

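Each group of 4 libraries was searched for a library far from the rest, by its gap to the nearest other value relative to the range. This was done for the 9 members and for some, not all, of the other genes and sums described. In 2 of 50 groups a library stood out, where chance gives about 1 in 20. Bgn in males was highest in replicate 3, at 260.8 CPM, with the other males at 226 to 229. Fmod in males was lowest in replicate 4, at 13.27 CPM, with the other males at 15.8 to 16.3. The high Adgre1 of male replicate 1 (62.8 CPM, with the other males at 11.3 to 13.9) was not in the groups searched. The leukocyte marker sum of that library (605 CPM, with the other males at 315 to 348) was not searched either. Both would stand out by this rule, so the 2 groups are not a full list.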

How the results depend on the processing

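Lum kept its direction and its call under every alternative run, from -0.72 to -0.46. The number of members called was 2 with no filter, in DESeq2 and with the replicate block, 4 relative to the fibroblast markers, and 1 to 2 with a library left out. Across the table, 964 genes were called by DESeq2, 7070 relative to the fibroblast markers, 182 at 1.5-fold or more, and 315 to 490 when a library was omitted (315 without male replicate 3, 354 without female replicate 2, 379 without female replicate 3). Replicate numbers did not pair the libraries (correlations -0.047 to 0.054, 0 of 4 best with their own number), and in the fit with that block 427 genes were called, Lum was at -0.67 (adjusted p = 0.0020) and Bgn at -0.22 (adjusted p = 0.049). Bgn passed with no filter (-0.21), in DESeq2 (-0.22) and in 2 of the 8 omissions of a library (-0.27 to -0.18).

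With a library left out, the log2 ratio of Lum ran from -0.52 to -0.40 against Bgn and from -0.62 to -0.24 against Podn, and the median r between members was -0.12 without male replicate 4. Scaling to the fibroblast markers moved the median of all genes tested from -0.00074 to 0.21. With that shift these fold changes turned positive, each below 0.21: Dcn 0.17, Fmod 0.17, Prelp 0.12, Chad 0.087, Nyx 0.0085, Pdgfra 0.077, Postn 0.028, Wt1 0.089, Upk3b 0.15, Myh11 0.060 and Myh6 0.15. Pdgfra is itself 1 of the 12 markers used for the scaling. Ogn (0.33) and Aspn (0.32) passed the threshold there. With a library left out the sign was not stable for Dcn (-0.070 to 0.0089), Fmod (-0.077 to 0.026), Podn (-0.35 to 0.015), Chad (-0.34 to 0.030), Tsku (-0.089 to 0.074), Ecm2 (-0.016 to 0.060), Upk3b (-0.12 to 0.018), Ptprc (-0.017 to 0.49), Cd68 (-0.023 to 0.16), Hba-a1 (-0.097 to 1.00) and Hba-a2 (-0.092 to 0.92). The cause of these changes of sign with a library left out was not tested. Depth limits Omd, Epyc, Optc and Nyx, with 237 counts or fewer in all.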
